A study of Homo sapiens with 77 samples.

Results

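The aminoacyl-tRNA synthetases, the enzymes that load each amino acid onto its tRNA, were followed through 2 RNA-seq experiments on diffuse large B-cell lymphoma (DLBCL) lines. The members were chosen by gene symbol, with earlier results of these data known and no measured value in the rule: 20 genes for the enzymes of the cytosol and 16 for those of the mitochondria, written here with a final 2. These 36 genes were found among the 35813 genes of the table of the MI-503 experiment and among the 21455 genes of the table of the drug combination experiment. In the first experiment the lines KARPAS422 and DB, which carry mutant EZH2, and Farage and SUDHL5, which carry wildtype EZH2, were grown for 3 days with DMSO or with 800 nM MI-503. MI-503 is a small molecule that blocks the binding of menin (MEN1) to MLL1. In the second, the EZH2 mutant lines KARPAS422 (48 h) and SuDHL10 (24 h) were given DMSO, 1 µM EPZ-6438 (an inhibitor of EZH2), 330 nM VTP50469 (another menin inhibitor) or both drugs. Each line and treatment had 2 libraries. No source says that they are separate cultures, and the p-values then cover only how far these libraries vary, which may be technical. In bulk RNA a lower level in all cells and fewer cells of a kind cannot be told apart.

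Uncharged tRNA, the substrate of these enzymes, activates the kinase GCN2 (EIF2AK4), and the translation of the transcription factor ATF4 then rises. ATF4 with C/EBP partners binds response elements in genes of amino acid synthesis and transport and in many genes of cytosolic synthetases, whereas the mitochondrial enzymes are seldom counted among its targets. Of the members, GARS and KARS encode the glycine and lysine enzymes of both compartments, EPRS carries the glutamate and the proline activities in 1 chain, and FARSA and FARSB are the subunits of 1 enzyme. 8 of the cytosolic enzymes (DARS, EPRS, IARS, KARS, LARS, MARS, QARS and RARS) sit in the multisynthetase complex.

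Libraries of the MI-503 experiment held from 13034958 to 54883332 counts and those of the other from 8956156 to 31573027. The 6 B cell markers summed to 2983 to 3891 in the first and 2713 to 5716 in the second, in CPM (counts scaled to a common library size), and the 3 red cell markers to at most 0.524 CPM outside Farage. In the MI-503 experiment 9 deep libraries of at least 25106810 counts held KRT5, a keratin of epithelial cells, at 2.06 to 3.40 CPM, and of 7 shallow libraries of at most 16098639 counts, 4 were at 0, 2 at 0.524 and 0.642 and 1, Farage MI-503 replicate 1, at 17.1 CPM. In DB both DMSO libraries were shallow (14695930 and 15474692 counts) and both MI-503 libraries deep (52236459 and 46170498 counts), so that in DB depth and MI-503 cannot be told apart. The T cell and myeloid markers summed to 156 to 295 CPM in KARPAS422, where CD3G led, and to at most 5.71 CPM in the other lines.

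Per transcript length, the cytosolic enzymes were the more abundant class in each line without drug. In RPKM (CPM per kilobase, from the deposited counts and the length of the main transcript), the median of the 20 cytosolic genes with DMSO was 88.0 in SUDHL5, 72.7 in KARPAS422, 62.3 in DB and 62.1 in Farage. The median of the 16 mitochondrial genes was 9.77, 13.1, 10.3 and 11.7 RPKM in the same order. GARS, the glycine enzyme, was the highest member in KARPAS422 (254.6 and 262.6 RPKM in the DMSO libraries), in DB (234.8 and 235.4) and in SUDHL5 (259 and 266). In Farage the DMSO libraries of KARS (118 and 119 RPKM) and GARS (116 and 120.3) overlapped. IARS2, the mitochondrial isoleucine enzyme, led its class in the 4 lines with means of 34.2 to 54.9 RPKM. PARS2, the mitochondrial proline enzyme, had the lowest means, 2.49 to 3.92 RPKM. In SUDHL5 the libraries of IARS2 (33.90 to 34.42) overlapped those of CARS2 (31.53 to 34.35), and PARS2 (2.41 to 2.58) those of FARS2 (2.30 to 3.25). In DB PARS2 (3.55 to 3.84) overlapped HARS2 (3.34 to 4.14).

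**Figure D1:**
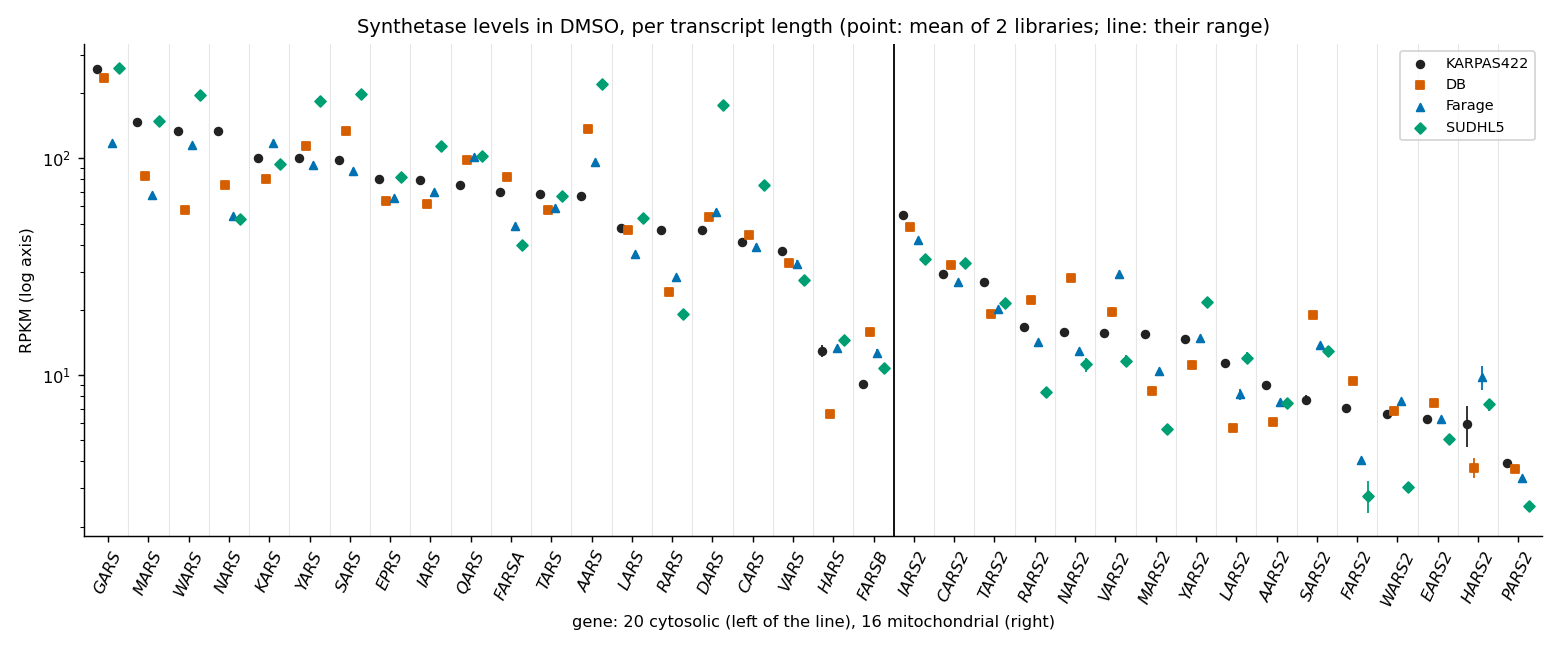
Level of each synthetase gene with DMSO in the 4 lines of the MI-503 experiment, in RPKM on a log axis; each point is the mean of 2 libraries, the vertical line their range, and the black line divides 20 cytosolic from 16 mitochondrial genes. By mean GARS stands highest in KARPAS422, DB and SUDHL5, and PARS2 lowest in each line, though its libraries overlap those of HARS2 in DB and FARS2 in SUDHL5.

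The gap between the enzymes for 1 amino acid depended on the amino acid. WARS, the cytosolic tryptophan enzyme, stood at 20.4 times the RPKM of WARS2 in KARPAS422, 8.44 times in DB, 15.3 times in Farage and 63.8 times in SUDHL5. For arginine the ratio of RARS to RARS2 was 2.82, 1.08, 1.99 and 2.30 in the same order, and for isoleucine the ratio of IARS to IARS2 was 1.44, 1.28, 1.66 and 3.35. All 36 members differed between the 4 lines in the test of their DMSO libraries, as did 97.1% of all 14066 genes tested, so that a difference between lines is not particular to these genes. DARS, the aspartate enzyme, was lower in KARPAS422 than in SUDHL5 (log2 difference -2.07 ± 0.040, adjusted p = 3.05e-15). AARS, the alanine enzyme, was lower as well (-1.86 ± 0.038, adjusted p = 5.93e-15), and NARS, the asparagine enzyme, was higher in KARPAS422 (1.19 ± 0.035, adjusted p = 3.04e-13).

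With MI-503 the cytosolic enzymes fell in KARPAS422 and the mitochondrial enzymes moved less. Of the 20 cytosolic members 15 fell and 1 rose at an adjusted p under 0.1, beside 26.3% of all 14495 genes tested that fell and 25.5% that rose. Their median log2 fold change was -0.51, against 0.01 for all genes tested. Of the 16 mitochondrial members 7 fell and 3 rose, with a median of -0.08. P-values here and in what follows are from edgeR's quasi-likelihood test with Benjamini-Hochberg adjustment over all genes tested, and fold changes are MI-503 against DMSO with the standard error of the fit.

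The largest change was in WARS (chr14:100333790-100376805, reverse strand; gene coordinates are GENCODE 44 on hg38), the tryptophan enzyme, also known as a gene induced by interferon. WARS stood at 352 and 367 CPM with DMSO and at 135 and 145 CPM with MI-503 in KARPAS422. Both MI-503 libraries lay far below both DMSO libraries, at 38.8% of the DMSO level (log2 fold change -1.36 ± 0.039, adjusted p = 7.05e-09). Of all genes, 35.2% had both MI-503 libraries below both DMSO libraries and 36.5% had both above, so a lack of overlap alone was common. GARS (chr7:30580533-30634033) went from 630.0 and 647 CPM to 244 and 280.2 CPM (-1.29 ± 0.051, adjusted p = 2.83e-08). CARS (chr11:3000922-3057613), the cysteine enzyme, went from 114 and 114 CPM to 47.2 and 52.4 CPM (-1.20 ± 0.048, adjusted p = 2.97e-08). In both genes, too, the groups did not overlap, and the DMSO libraries differed little from each other.

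YARS (chr1:32775237-32818031), the tyrosine enzyme, stood at 247 and 248 CPM with DMSO and at 111 and 124 CPM with MI-503 (-1.08 ± 0.044, adjusted p = 3.46e-08). MARS (chr12:57475445-57517569), the methionine enzyme, stood at 410.0 and 421 CPM and then at 203 and 231 CPM (-0.94 ± 0.049, adjusted p = 1.6e-07), and 12.4% of its exon bases overlap other genes, DDIT3 on the opposite strand among them. SARS (chr1:109213918-109238182), the serine enzyme, stood at 189 and 191 CPM and then at 99.1 and 104 CPM (-0.90 ± 0.036, adjusted p = 2.83e-08). With MI-503 these 3 genes stood at 47.2%, 52.1% and 53.5% of the DMSO level. Their MI-503 libraries both lay below both DMSO libraries, as in 35.2% of all genes. EPRS, the glutamate and proline enzyme, went from 401 and 389 CPM to 232 and 247 CPM (-0.72 ± 0.035, adjusted p = 1.06e-07). IARS, the isoleucine enzyme, went from 360.3 and 359.7 CPM to 215 and 224 CPM (-0.72 ± 0.031, adjusted p = 4.74e-08).

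The other cytosolic members that fell were TARS (-0.68 ± 0.038), NARS (-0.60 ± 0.031), AARS (-0.41 ± 0.045), HARS (-0.29 ± 0.076), LARS (-0.25 ± 0.033), FARSA (-0.15 ± 0.033) and VARS (-0.11 ± 0.032), the enzymes for threonine, asparagine, alanine, histidine, leucine, phenylalanine and valine. KARS, the lysine enzyme, was the 1 cytosolic member that rose, from 203 and 202 CPM with DMSO to 221 and 217 CPM with MI-503 (0.11 ± 0.03, adjusted p = 0.00941). DARS (0.03), FARSB (0.05), QARS (-0.00) and RARS (0.04), which load aspartate, phenylalanine, glutamine and arginine, did not pass the test. By a call that also needs a fold above 1.5, 10 cytosolic and 0 mitochondrial members fell and 0 rose, beside 2.75% of all genes that fell and 7.36% that rose by this rule.

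**Figure D2:**
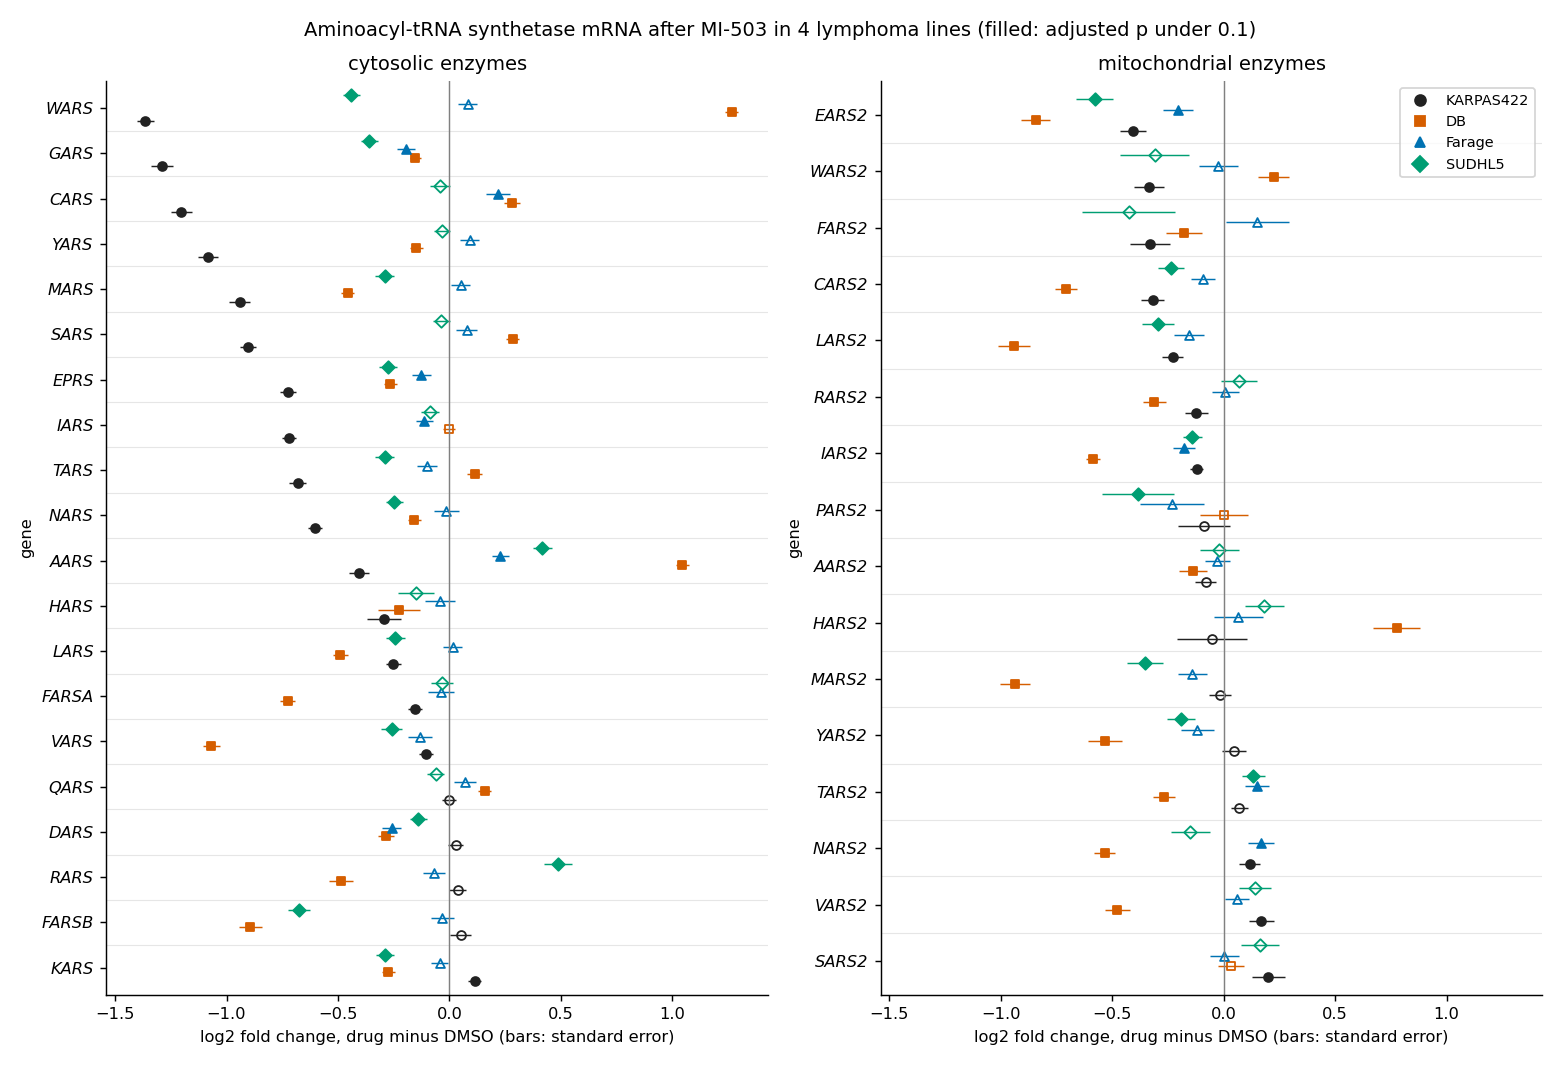
Log2 fold change of each synthetase gene with MI-503 against DMSO in 4 lines, cytosolic genes on the left and mitochondrial genes on the right, ordered by KARPAS422; bars are standard errors and filled symbols have an adjusted p under 0.1. In KARPAS422 the cytosolic genes reach from -1.36 to 0.11 and the mitochondrial genes from -0.41 to 0.20, and in DB WARS and AARS stand at 1.27 and 1.04.

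The cytosolic members split by a list written from general knowledge, with earlier results of these data known. All 13 that are usually described as ATF4 targets fell in KARPAS422, with a median log2 fold change of -0.72. Of the 7 others 2 fell (HARS and FARSA) and 1 rose (KARS), with a median of 0.03. The multisynthetase complex cut across this split. Of its 8 enzymes 4 fell (EPRS, IARS, LARS and MARS, all of the ATF4 list) and 1 rose, with a median of -0.13. Of the 12 cytosolic members outside it 11 fell, with a median of -0.64. Of the 3 scaffold proteins of the complex AIMP2 fell (-0.27 ± 0.043, adjusted p = 0.00045), and AIMP1 (-0.04) and EEF1E1 (-0.08) did not pass the test. By fold of the catalytic domain, 7 of 9 class I enzymes and 7 of 10 class II enzymes fell, EPRS being left out because it holds both classes.

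Promoter windows of 250 bases before and 50 bases after the transcript start, from RefSeq on GRCh38.p14, were matched for 30 of the 36 members and searched on both strands for the core of the C/EBP-ATF response element, TGATGNAA. The element was in the windows of 7 of the 10 matched members of the ATF4 list, of 0 of the 6 other matched cytosolic members and of 1 of the 14 matched mitochondrial members. The list and the element may not be independent, since ATF4 binds such elements in its targets. Counted by gene in the same way, 4.46% of all 27305 genes of the table held it, and 3.62% of the 35116 single windows. DARS, LARS, VARS, YARS, AARS2 and VARS2 were not matched. The 7 cytosolic windows are shown because these genes fell together in KARPAS422. Each line gives 30 bases of the gene's own strand, 5′ to 3′, with the element in capitals, read on either strand:
AARS: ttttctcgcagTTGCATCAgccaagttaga
CARS: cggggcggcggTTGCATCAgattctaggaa
GARS: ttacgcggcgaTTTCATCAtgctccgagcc
IARS: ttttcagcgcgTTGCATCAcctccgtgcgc
MARS: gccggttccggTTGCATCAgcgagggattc
NARS: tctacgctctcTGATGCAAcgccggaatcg
TARS: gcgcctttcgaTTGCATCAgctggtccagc

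The AARS stretch is chr16:70289675-70289704, and its element starts 187 bases before the transcript start. Those of CARS (chr11:3057407-3057436), GARS (chr7:30594834-30594863), IARS (chr9:92293692-92293721) and MARS (chr12:57488053-57488082) start 2, 33, 13 and 4 bases before a start. Those of NARS (chr18:57621804-57621833) and TARS (chr5:33440956-33440985) start 14 and 2 bases after one. EPRS, SARS and WARS, also of the ATF4 list, had no match in their windows, and WARS had the largest fall, so the letters and the size of the fall did not go together member by member. The mitochondrial window with the element was that of YARS2, which did not pass the test in KARPAS422 (0.05). The E-box CACGTG, a motif of another factor family, was in 1 of 16 cytosolic and 3 of 14 mitochondrial members and in 8.77% of all genes. A match describes letters only, and binding was not measured here.

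The genes of uncharged tRNA sensing and the ATF4 response, a list of 22 that holds no synthetase, fell in KARPAS422 as well: 19 fell and 2 rose, with a median log2 fold change of -1.18. ATF4 itself fell (-1.30 ± 0.046, adjusted p = 1.84e-08). CHAC1, which degrades glutathione (-3.50 ± 0.13), ATF5 (-2.18 ± 0.078), SESN2 (-1.98 ± 0.065), PSAT1 of serine synthesis (-1.89 ± 0.08) and the asparagine synthetase ASNS (-1.83 ± 0.082) fell the most among those with a standard error under 0.2. The kinase EIF2AK4 (0.41 ± 0.05) and the cystine transporter SLC7A11 (0.24 ± 0.041) rose, and the pseudokinase TRIB3 (0.06 ± 0.04) did not pass the test. Of 5 cytosolic elongation factors, which deliver charged tRNA to the ribosome and move it along, 3 rose and 2 fell, within -0.15 to 0.21. Of 9 mitochondrial translation factors 6 fell and 1 rose, with a median of -0.11. Beside these lists, 26.3% of all genes tested fell and 25.5% rose.

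Among the mitochondrial members in KARPAS422 the changes were small. EARS2, the glutamate enzyme, went from 31.9 and 33.9 CPM with DMSO to 24.4 and 25.5 CPM with MI-503 (-0.41 ± 0.058, adjusted p = 0.000203). CARS2, the cysteine enzyme, went from 53.5 and 55.4 CPM to 42.3 and 45.5 CPM (-0.32 ± 0.05, adjusted p = 0.000396). The other 5 that fell were WARS2 (-0.34), FARS2 (-0.33), LARS2 (-0.23), RARS2 (-0.12) and IARS2 (-0.12). SARS2 (0.20 ± 0.075), VARS2 (0.17 ± 0.057) and NARS2 (0.12 ± 0.049) rose, and 48.2% and 63.0% of the exon bases of SARS2 and VARS2 overlap readthrough genes of the same strand. Without MI-503 replicate 1, 4 mitochondrial members fell in place of 7.

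Set side by side, 16 pairs of a cytosolic and a mitochondrial enzyme for 1 amino acid could be formed, with EPRS paired to EARS2 and both FARSA and FARSB to FARS2. In KARPAS422 the cytosolic log2 fold change lay below the mitochondrial one in 13 pairs, and the median difference was -0.46. The glycine and lysine enzymes had no partner. In 8 pairs the cytosolic enzyme alone fell. MARS2, the partner of MARS, stood at 48.9 and 46.0 CPM with DMSO and at 46.8 and 47.2 CPM with MI-503, YARS2 at 32.2 and 31.0 and then 32.2 and 33.2 CPM, and TARS2 at 74.2 and 73.9 and then 78.9 and 76.4 CPM. The partners AARS2 (-0.08), HARS2 (-0.05), NARS2, SARS2 and VARS2 also did not fall, and the last 3 rose. In 2 pairs the mitochondrial enzyme alone fell, FARS2 against FARSB and RARS2 against RARS, the latter at 103 and 97.7 CPM and then 103 and 104 CPM. For serine SARS fell and SARS2 rose, from 14.2 and 15.7 CPM with DMSO to 17.1 and 17.3 CPM with MI-503. In DB the cytosolic value lay below in 5 of the 16 pairs (median difference 0.38), in Farage in 7 (0.07) and in SUDHL5 in 7 (0.05).

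In DB, the other EZH2 mutant line, members of both classes moved in both directions, and more of them fell than rose. Of the 20 cytosolic members 6 rose and 13 fell, and of the 16 mitochondrial members 2 rose and 12 fell, beside 34.5% and 34.7% of all 13942 genes tested that rose and fell. The medians were -0.19 and -0.39, against 0.02 for all genes. WARS rose from 157 and 157 CPM with DMSO to 380 and 374 CPM with MI-503, a fold of 2.40 (log2 fold change 1.27 ± 0.029, adjusted p = 2.02e-11). AARS rose from 471 and 489 CPM to 1007 and 972 CPM (1.04 ± 0.029, adjusted p = 5.8e-11). In both genes the MI-503 libraries stood far above the DMSO libraries, whereas in KARPAS422 WARS and AARS fell. Of all genes in DB, 42.1% had both MI-503 libraries above both DMSO libraries and 40% had both below.

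HARS2 (0.78 ± 0.11), CARS (0.28 ± 0.036), SARS (0.28 ± 0.029), WARS2 (0.22 ± 0.071), QARS (0.16 ± 0.028) and TARS (0.11 ± 0.033) also rose in DB. VARS, the valine enzyme, fell from 142 and 135 CPM to 66.7 and 65.1 CPM (-1.07 ± 0.038, adjusted p = 3.03e-10). FARSB, a subunit of the phenylalanine enzyme, fell from 107 and 112 CPM to 56.0 and 62.2 CPM (-0.89 ± 0.052, adjusted p = 2.08e-08). Both stood below in each MI-503 library, as did 40% of all genes. In KARPAS422 VARS fell by 0.11 and FARSB did not pass the test. Among mitochondrial members LARS2 (-0.94 ± 0.072) and MARS2 (-0.94 ± 0.069) fell the most, MARS2 from 26.4 and 26.1 CPM to 13.7 and 13.8 CPM. When a fold above 1.5 was also required, 3 cytosolic and 5 mitochondrial members fell and 2 and 1 rose, beside 10.2% and 16.2% of all genes. Of the 13 members of the ATF4 list 5 rose and 7 fell in DB, and of the 22 genes of the ATF4 response 9 rose and 11 fell, with DDIT3 (1.53), TRIB3 (1.52) and ATF3 (1.48) up and PSAT1 (-1.08) down. Beside these lists, 34.5% of all genes tested rose and 34.7% fell.

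Depth is not the only measure that went with MI-503 in DB. The 13 epithelial markers summed to 21.8 and 20.04 CPM in the DMSO libraries and to 34.8 CPM in each MI-503 library. Outside KRT10 they summed to 2.32 and 2.41 CPM, then 9.57 and 8.57 CPM. In the DMSO libraries 6 and 5 of the 13 were above 0, and in each MI-503 library 12. Of 7 markers tested 5 rose and 0 fell, beside 34.5% and 34.7% of all genes. Markers near 0 with DMSO pass the filter on low counts only through the MI-503 libraries, so this count leans towards rises and shows no direction. The part of depth and of these markers in the members' values was not tested apart from the drug. When all 16 libraries shared a fit with a term for depth class, an alternative chosen after seeing the data, 14 cytosolic and 12 mitochondrial members fell in DB. That fit called 4877 of 16274 genes lower and 3047 higher in DB, in place of 4840 and 4805 of 13942.

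**Figure D3:**
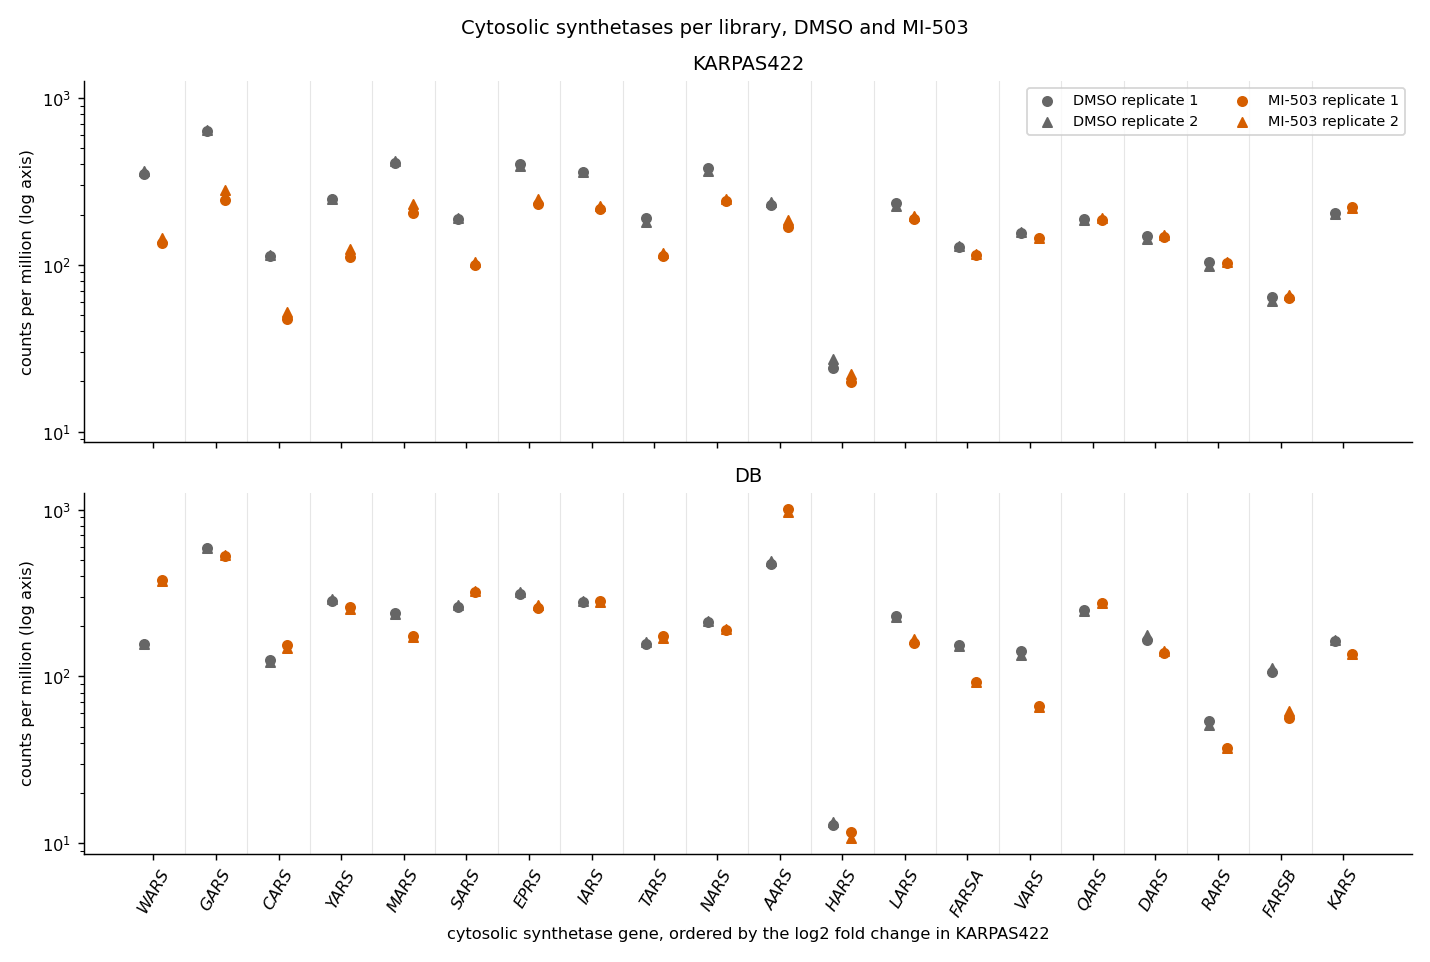
CPM of the 20 cytosolic synthetases in each library of KARPAS422 (top) and DB (bottom), on a log axis; grey is DMSO, orange MI-503, circles replicate 1 and triangles replicate 2, ordered by the fold change in KARPAS422. WARS goes from 352 and 367 down to 135 and 145 in KARPAS422 and from 157 and 157 up to 380 and 374 in DB.

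In SUDHL5, which carries wildtype EZH2, more members of each class fell than rose. There 11 of 20 cytosolic members fell and 2 rose, and 7 of 16 mitochondrial members fell and 1 rose, beside 28.7% and 26.3% of all 13396 genes tested that fell and rose. The medians were -0.20 and -0.17. FARSB fell the most, from 72.7 and 73.5 CPM with DMSO to 47.1 and 45.0 CPM with MI-503 (-0.67 ± 0.05, adjusted p = 8.2e-06). EARS2 fell from 27.3 and 25.8 CPM to 18.8 and 17.3 CPM (-0.58 ± 0.083, adjusted p = 0.000382), and WARS from 514 and 524 CPM to 382 and 382 CPM (-0.44 ± 0.038, adjusted p = 1.9e-05). RARS rose from 41.5 and 40.3 CPM to 60.4 and 55.5 CPM (0.49 ± 0.061, adjusted p = 0.000176), and AARS from 776 and 744 CPM to 1003 and 1027 CPM (0.42 ± 0.042, adjusted p = 4.59e-05). In each of these 5 genes the groups did not overlap, as in 37.7% of all genes where both MI-503 libraries lay below and 36.3% where both lay above, and each group held 1 deep and 1 shallow library. TARS2, the mitochondrial threonine enzyme, was the member of its class that rose, from 59.6 and 58.8 CPM to 67.4 and 63.4 CPM (0.13 ± 0.051, adjusted p = 0.0554). Requiring a fold above 1.5 too, only FARSB among the 36 members was called, beside 7.41% of all genes that fell and 6.71% that rose. Without MI-503 replicate 1, 4 mitochondrial members fell in place of 7.

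In Farage 4 cytosolic members fell and 2 rose, and 2 mitochondrial members fell and 2 rose, beside 14.7% and 12.3% of all 12659 genes tested that fell and rose, so the members' share was near that of all genes. Scaled by library totals alone, 2178 genes rose and 1333 fell in place of 1555 and 1866. The medians of the members were -0.03 in both classes. AARS rose from 335 and 340.3 CPM to 391 and 399 CPM (0.23 ± 0.038, adjusted p = 0.0026) and CARS from 106 and 112 CPM to 121 and 131 CPM (0.22 ± 0.053, adjusted p = 0.0177). DARS fell from 183 and 173 CPM to 148 and 149 CPM (-0.26 ± 0.043, adjusted p = 0.00273). GARS fell from 286 and 299 CPM to 254 and 257 CPM (-0.19 ± 0.04, adjusted p = 0.00796). EPRS (-0.13), IARS (-0.11), EARS2 (-0.21) and IARS2 (-0.18) also fell, NARS2 (0.17) and TARS2 (0.15) rose, and no member had a fold above 1.5, beside 1.48% of all genes that fell and 2.06% that rose by such a fold. Farage MI-503 replicate 1 also held HBB, a globin of red cells, at 25.8 CPM and 85.4 CPM of the 13 epithelial markers, against 22.99 CPM in replicate 2 and 14.6 to 16.2 CPM in the DMSO libraries. The part of this RNA in the members' values was not tested. Without DMSO replicate 1 or 2 the cytosolic count was 1 and the mitochondrial count 0, and without MI-503 replicate 1 or 2 the mitochondrial count was 1 or 4.

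Across the 4 lines GARS and EPRS fell in each line, and so did EARS2 and IARS2 among the mitochondrial members. AARS rose in 3 lines and fell in KARPAS422. QARS fell in no line. Of the cytosolic members 7 rose in at least 1 line and fell in at least 1 other, and of the mitochondrial members 4 did, beside 23.7% of the 11423 genes tested in all 4 lines. Of these genes 5.25% fell in each line.

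The difference between the lines was tested as an interaction. The response of KARPAS422 was lower than that of DB in 12 cytosolic members and higher in 7, beside 19.7% of all 15782 genes lower and 27.2% higher. In the mitochondrial members the order was the other way, with 10 higher and 2 lower. WARS had the widest difference of any member (-2.62 ± 0.048, adjusted p = 1.21e-13), followed by CARS (-1.47 ± 0.06, adjusted p = 2.16e-10) and AARS (-1.44 ± 0.055, adjusted p = 1.07e-10). Against Farage 12 cytosolic members were lower and 1 higher in KARPAS422, and 3 and 0 mitochondrial members, beside 14.7% of all 15228 genes lower and 9.52% higher (1450 higher and 2234 lower, or 1981 and 1707 with RLE size factors). Against SUDHL5 12 were lower and 4 higher, with 0 and 3 mitochondrial members, beside 17% of all 15522 genes lower and 19% higher. These comparisons share the KARPAS422 libraries, so their counts are not independent. By a call that also needs a fold above 1.5, 8 cytosolic members were lower and 3 higher than in DB (9.07% and 8.93% of all genes), 11 and 0 than in Farage (2.73% and 3.64%), and 8 and 1 than in SUDHL5 (3.76% and 6.83%).

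Within the ATF4 list, 11 of 13 members were lower in KARPAS422 than in DB, 12 of 13 than in Farage and 11 of 13 than in SUDHL5. LARS and VARS were higher than in DB (0.25 and 0.98). VARS did not pass the test against Farage, and it was higher (0.14) and LARS not called against SUDHL5. Of the 7 other cytosolic members 1, 0 and 1 were lower, in the same order. Nearly all cytosolic members with a lower response in KARPAS422 were of this list, which was written with earlier results of these data known. AARS, CARS, SARS, TARS and WARS rose in DB, so for them that difference was between a fall and a rise. The mitochondrial counts depended on single libraries. Against Farage 0, 1 or 5 members were lower in place of 3 without any 1 library but KARPAS422 MI-503 replicate 2, the 5 being without Farage MI-503 replicate 1. Against SUDHL5 1 was higher in place of 3 without KARPAS422 DMSO replicate 2, either KARPAS422 MI-503 library or replicate 1 of either SUDHL5 group.

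In the drug combination experiment 33 members passed the filter on low counts. AARS2 had 0 counts in all 16 libraries, VARS at most 36 and VARS2 at most 4, although the MI-503 table held them at 43.7, 154 and 55.4 CPM in the first KARPAS422 DMSO library. CARS stood at 3.38 and 3.21 CPM with DMSO in KARPAS422 here against 114 and 114 CPM there, SARS2 at 1.02 and 0.676 CPM against 14.2 and 15.7 CPM, and HARS at 104 and 108 CPM against 23.98 and 27.1 CPM. Levels of these genes are therefore not comparable between the tables, and CARS and SARS2 rest on few counts in the second.

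With DMSO SuDHL10 held more of the cytosolic enzymes than KARPAS422. The SuDHL10 libraries are from 24 h and those of KARPAS422 from 48 h, so line and time cannot be told apart. Of 19 tested cytosolic members 12 were higher and 2 lower, and of 14 mitochondrial members 3 were higher and 3 lower, beside 30.6% and 31.8% of all 11647 genes. YARS stood at 444 and 428 CPM in SuDHL10 and at 198 and 191 CPM in KARPAS422, each scaled within its line, with a tested difference of 1.37 ± 0.13 on the log2 scale (adjusted p = 4.04e-06). FARSB (1.25 ± 0.14) and AARS (1.18 ± 0.15) were also higher, and WARS was lower (-0.77 ± 0.14, adjusted p = 0.000638). Scaled by library totals alone the median of all genes moved by -0.18 in this comparison, and 2631 genes were higher and 4565 lower in place of 3561 and 3708. When a fold above 1.5 was also required, 8 cytosolic members were higher and 2 lower and 3 mitochondrial members higher and 1 lower, beside 20.9% and 25.7% of all genes. Without SuDHL10 DMSO replicate 2 or either KARPAS422 library 1 mitochondrial member was lower in place of 3.

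Both drugs together lowered the synthetases of both compartments in KARPAS422. Of 19 cytosolic members 17 fell and 0 rose, and of 14 mitochondrial members 8 fell and 0 rose, beside 25.2% and 23.5% of all 13223 genes tested that fell and rose. The medians were -0.82 and -0.44, against 0.10 for all genes. GARS went from 508 and 449 CPM with DMSO to 226 and 168 CPM with both drugs (-1.28 ± 0.15, adjusted p = 0.00123). EPRS went from 472 and 383 CPM to 215 and 140 CPM (-1.27 ± 0.21, adjusted p = 0.00405), and YARS from 198 and 191 CPM to 95.8 and 76.0 CPM (-1.18 ± 0.13, adjusted p = 0.00093). In all 19 cytosolic members both libraries with both drugs lay below both DMSO libraries, beside 31.5% of all genes, and in these 3 genes replicate 2 was the lower. Replicate 2 with both drugs also held all 13 epithelial markers above 0, with 22.2 CPM outside KRT10, against 2.02 CPM in replicate 1 and 1.01 and 3.63 CPM in the DMSO libraries. Without it 16 cytosolic and 9 mitochondrial members fell. Requiring a fold above 1.5 too, 14 cytosolic and 4 mitochondrial members fell and 0 rose, beside 15.1% and 19.8% of all genes. Scaled by library totals alone the median of all genes was 0.33, a shift of 0.23, and 4399 genes rose and 2396 fell in place of 3108 and 3333.

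FARSA (260 and 306 CPM with DMSO, 132 and 131 CPM with both drugs) and FARSB (118 and 99.8 CPM, then 59.7 and 46.5 CPM), the 2 subunits of the phenylalanine enzyme, fell by 1.11 and 1.04 on the log2 scale (standard errors 0.11 and 0.15). IARS (-1.005 ± 0.16), MARS (-0.93 ± 0.091), RARS (-0.89 ± 0.21), KARS (-0.84 ± 0.13), TARS (-0.82 ± 0.16) and SARS (-0.73 ± 0.097) fell next. LARS (-0.49 ± 0.21) and CARS (-0.28 ± 0.35) did not pass the test. All 7 cytosolic members outside the ATF4 list fell here, with a median of -0.84, and 10 of its 12 tested members, with a median of -0.77. With MI-503 the medians in KARPAS422 were 0.03 and -0.72, with another inhibitor, dose, time and table, so the values stand side by side only.

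Among the mitochondrial members MARS2 fell from 90.9 and 101 CPM to 49.0 and 38.2 CPM (-1.14 ± 0.14, adjusted p = 0.00141) and IARS2 from 312 and 271 CPM to 155 and 111 CPM (-1.13 ± 0.17, adjusted p = 0.00285). LARS2 (-0.65), YARS2 (-0.63), NARS2 (-0.52), PARS2 (-0.45), TARS2 (-0.43) and CARS2 (-0.36) fell as well. EARS2 (-0.07), FARS2 (0.09), HARS2 (0.12), WARS2 (-0.20), RARS2 (-0.40) and SARS2 (-1.17 ± 0.68) did not pass the test. Of 21 tested genes of the ATF4 response 13 fell and 3 rose, ATF4 itself by -0.87, ASNS by -1.15 and PSAT1 by -1.08, while SESN2 (0.95), ATF3 (1.67) and DDIT4 (1.45) rose. Mitochondrial translation factors fell in 5 of 9 genes, with TSFM at -1.31, and 3 of 4 tested cytosolic elongation factors fell. Beside these lists, 25.2% of all genes tested fell and 23.5% rose.

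**Figure D4:**
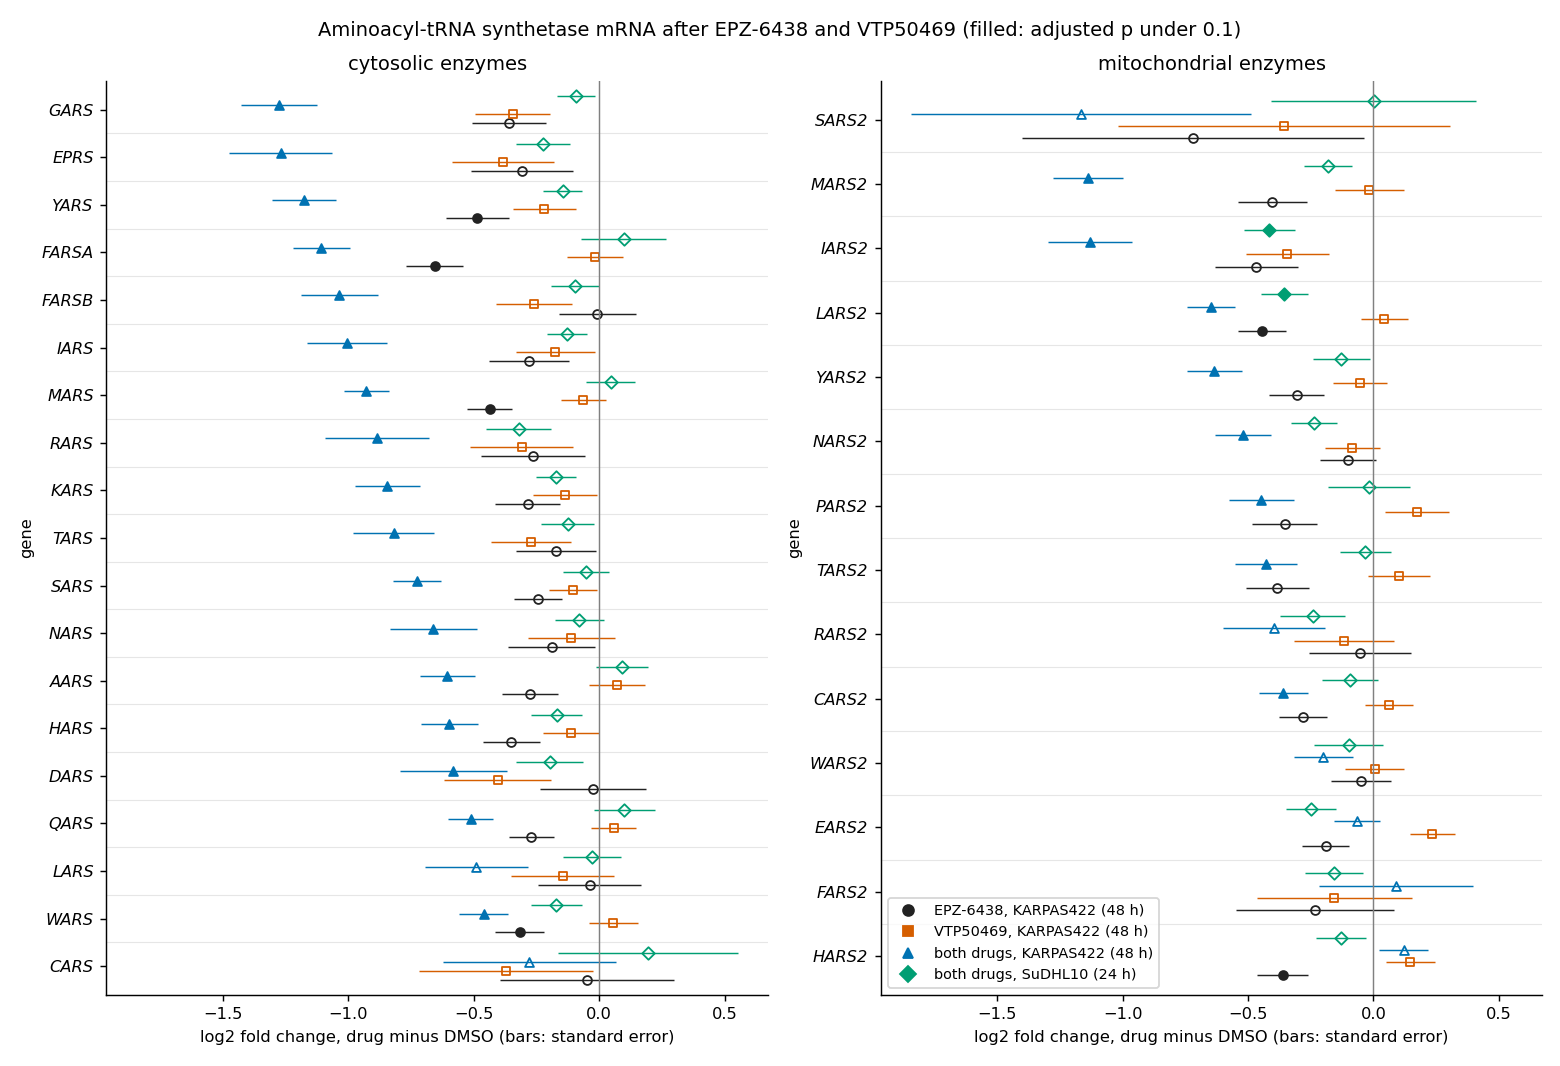
Log2 fold change against DMSO of the 33 tested synthetase genes with EPZ-6438, VTP50469 or both drugs in KARPAS422 and with both drugs in SuDHL10 (at another time), cytosolic genes left and mitochondrial genes right; bars are standard errors and filled symbols have an adjusted p under 0.1. Both drugs in KARPAS422 reach -1.28 in GARS, and with VTP50469 alone no symbol is filled.

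With each drug alone fewer members passed the test in KARPAS422. With EPZ-6438 4 of 19 cytosolic members (FARSA -0.66, YARS -0.49, MARS -0.44 and WARS -0.32) and 2 of 14 mitochondrial members (LARS2 -0.45 and HARS2 -0.36) fell and 0 rose, beside 10% of all genes that fell and 8.27% that rose. Scaled by library totals alone, 1584 genes rose and 797 fell in place of 1093 and 1326, with a shift of the median of 0.10. All 33 tested members had a negative log2 fold change, of which 17 had an unadjusted p under 0.05, beside 52.5% of all genes that were negative and 14.8% that were negative with such a p. By a call that also needs a fold above 1.5, FARSA alone was called, beside 2.53% of all genes that fell and 6.85% that rose. Without DMSO replicate 2 the counts were 2 and 0, and without EPZ-6438 replicate 2 they were 0 and 0. They were 10 and 5 by DESeq2, 8 and 7 with RLE size factors, 10 and 6 with the 2 groups alone, 11 and 7 with thinned counts, and 3 and 4 with the replicate number as a block, where WARS (adjusted p = 0.107 in edgeR's test) and HARS2 (0.118) lost their call. With VTP50469 alone 0 members were called by edgeR, beside 3.18% of all genes that rose and 0.197% that fell (421 and 26, or 572 and 194 scaled by library totals alone). 1 member (EARS2, 0.23 ± 0.091) had an unadjusted p under 0.05, and DESeq2 called 1 cytosolic member lower. The log2 fold change was negative in 16 of 19 cytosolic and 7 of 14 mitochondrial members, beside 49.6% of all genes. Both VTP50469 libraries lay below both DMSO libraries in 13 cytosolic and 3 mitochondrial members, beside 22% of all genes. They lay above in 1 and 4, beside 28.2%. The log2 fold changes with VTP50469 lay between -0.41 and 0.07 in the cytosolic and between -0.36 and 0.23 in the mitochondrial members, and 0.0908% and 2.38% of all genes were lower and higher by a fold above 1.5.

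Against EPZ-6438 alone, both drugs lowered 10 cytosolic and 3 mitochondrial members and raised HARS2 (0.48 ± 0.1, adjusted p = 0.0315), beside 10.9% of all genes lower and 10% higher. FARSB fell from 114 and 103 CPM with EPZ-6438 to 59.7 and 46.5 CPM (-1.03 ± 0.15, adjusted p = 0.0141), having stood at 118 and 99.8 CPM with DMSO. Scaled by library totals alone the median of all genes moved by 0.13 in this comparison and by 0.12 in the next. The departure of both drugs from the sum of the single drugs was called in 0 members and in 0% of all genes by edgeR, and 10 members had an unadjusted p under 0.05, 9 of them negative, beside 4.41% of all genes that were negative with such a p. DESeq2 called 3 cytosolic members lower. This contrast rested on which of the 2 libraries with both drugs was used, which differed more from each other than any other pair. Without replicate 1 the median departure of all genes tested was -0.20, in place of -0.03. The median of all genes tested thus moved downwards too, and a move of the members beyond it was not tested. The calls against EPZ-6438 also depended on which single library was left out. When a fold above 1.5 was also required, 6 cytosolic and 2 mitochondrial members were lower than with EPZ-6438, beside 5.38% of all genes that were lower and 6.75% that were higher.

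In SuDHL10 few synthetases passed the test with both drugs at 24 h, and the count depended on the pairing of the libraries. 0 cytosolic members passed the test in edgeR, with 1 at an unadjusted p under 0.05 and 0 lower by DESeq2, and IARS2 (-0.42 ± 0.1, adjusted p = 0.0278) and LARS2 (-0.36 ± 0.094, adjusted p = 0.0366) fell among the mitochondrial members, beside 7.93% of all 11409 genes that fell and 13.7% that rose (905 and 1564, or 272 and 1807 scaled by library totals alone). GARS stood at 719 and 725 CPM with DMSO and at 660.2 and 695 CPM with both drugs (-0.09 ± 0.076). LARS2 stood at 88.6 and 84.4 CPM with DMSO, at 61.6 and 57.1 CPM with EPZ-6438 and at 68.0 and 67.1 CPM with both drugs. Its libraries with either treatment thus lay below those with DMSO, as in 21.1% of all genes with EPZ-6438 and 33.4% with both drugs. Against EPZ-6438 alone both drugs changed 0 members, beside 1.77% of all genes higher and 2.7% lower, with 3 cytosolic and 1 mitochondrial members at an unadjusted p under 0.05. Without DMSO replicate 1 the mitochondrial count with both drugs was 1 and the cytosolic count 1, and without DMSO replicate 2 or either library with both drugs the mitochondrial count was 0. With the replicate number as a block, 5 cytosolic and 6 mitochondrial members fell with both drugs, and 2 cytosolic members were lower than with EPZ-6438. The block raised the calls over all 11409 genes as well. With both drugs 2799 genes fell and 2507 rose, and against EPZ-6438 1838 were lower and 1952 higher.

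With EPZ-6438 alone 6 mitochondrial members fell in SuDHL10 (LARS2 -0.54, EARS2 -0.44, IARS2 -0.38, CARS2 -0.34, HARS2 -0.33 and MARS2 -0.31), and 3 cytosolic members (RARS -0.43, IARS -0.24 and KARS -0.24), beside 5.39% of all genes that fell and 12.1% that rose (615 and 1384, or 200 and 1689 scaled by library totals alone). CARS was called higher (1.20 ± 0.33) at 5.34 and 2.66 CPM against 1.66 and 1.74 CPM with DMSO, a difference of few counts. Without DMSO replicate 1 or 2 the counts of falls were 2 mitochondrial and 1 cytosolic, and with the replicate number as a block they were 11 and 10. With that block 2290 of all 11409 genes fell with EPZ-6438 and 2200 rose, in place of 615 and 1384. VTP50469 alone changed 0 members in SuDHL10 (0 at an unadjusted p under 0.05, 0 lower by DESeq2) and 0% of all genes. By a fold above 1.5 no member fell, and 0.307% of all genes did with EPZ-6438 and 0.798% with both drugs, while 9.62% and 11% rose. The 2 lines differed in time with drug, so their responses are not compared.

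**Figure D5:**
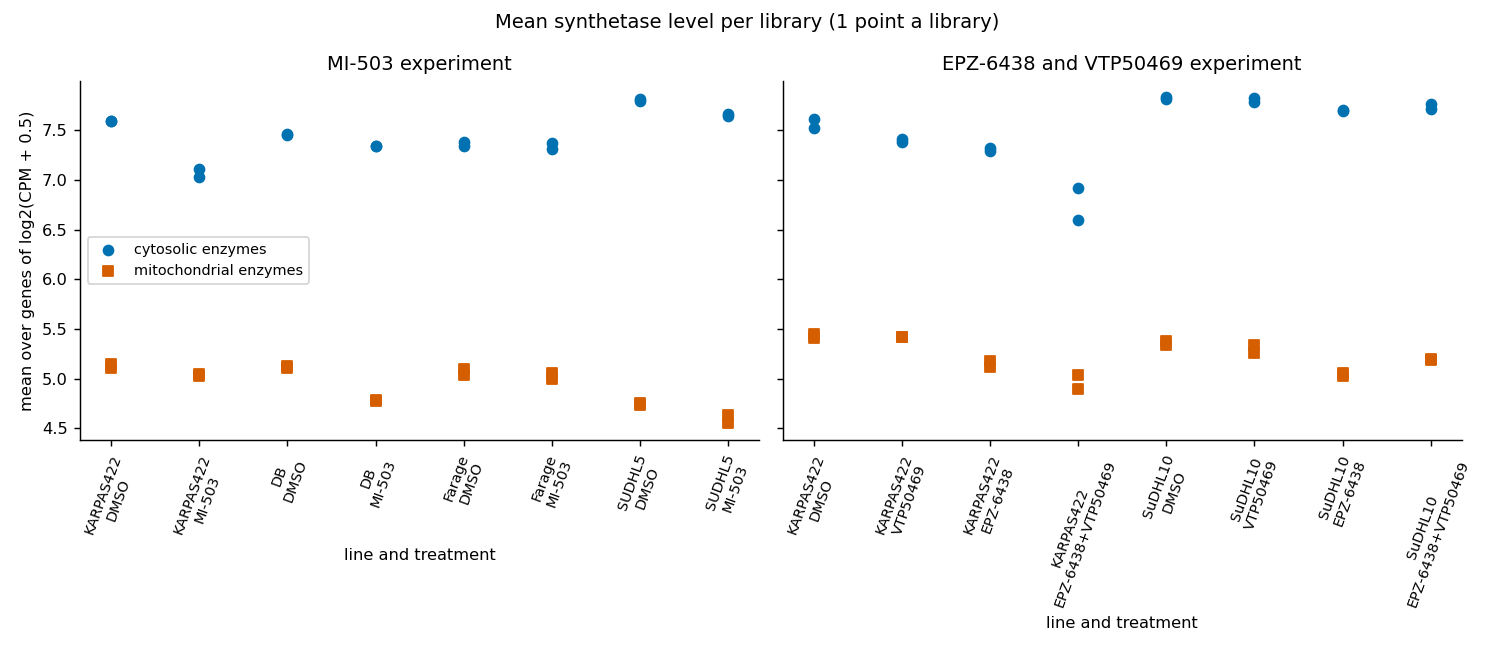
Mean over genes of log2(CPM + 0.5) of the cytosolic (circles) and mitochondrial (squares) synthetases in each library, 1 point a library, for the MI-503 experiment (left) and the other experiment (right). The cytosolic mean falls from 7.59 and 7.59 to 7.03 and 7.11 with MI-503 in KARPAS422, and to 6.92 and 6.60 from 7.61 and 7.52 with both drugs.

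Summed up per library, the mean of the cytosolic members less that of the mitochondrial members, in log2(CPM + 0.5), was 2.48 and 2.45 in the DMSO libraries of KARPAS422 and fell to 2.00 and 2.07 under MI-503. In DB it went the other way, from 2.35 and 2.34 to 2.55 and 2.56. In Farage (2.31 and 2.29, then 2.32 and 2.32) and in SUDHL5 (3.04 and 3.09, then 3.10 and 3.03) the groups lay close together. With both drugs in KARPAS422 it went from 2.16 and 2.11 to 1.88 and 1.703. With VTP50469 alone it was 2.00 and 1.97 there, also below both DMSO libraries, and with EPZ-6438 2.15 and 2.17. In SuDHL10 it was 2.45 and 2.47 with DMSO, 2.49 and 2.52 with VTP50469, 2.67 and 2.64 with EPZ-6438 and 2.52 and 2.58 with both drugs. These are descriptions, since members are not replicates.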

How the data were processed

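The 32 RNA-seq libraries of both drug experiments were analysed. The authors deposited raw counts for each gene, from alignment with HISAT2 (2.1.0) to hg38 and counting with featureCounts (1.6.1), and their processing notes list CASAVA (1.7) and Picard (2.23.1) too. Strand, annotation and the handling of multi-mapping reads: not given in the sources used here. Reads of overlapping genes cannot be told apart. Doses and times come from the study's legends. 45 other samples of the series are not used here.

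From the counts, genes were kept by filterByExpr, scaled by TMM and tested with edgeR (4.0.16, R 4.3.3); DESeq2 (1.42.0) was an alternative. Each line was fitted alone for MI-503, line pairs with an interaction, and all 8 libraries of a line for the combination. Calls need an adjusted p under 0.1 over all genes tested. On simulated data for MI-503 in KARPAS422 (14495 genes, 200 changed) 72% of 2-fold and 97% of 4-fold changes were called, and 16.7% of calls were false; for both drugs in KARPAS422, 51%, 66% and 10%. CPM in the text are TMM-scaled within a line, marker sums within a table. RPKM uses MANE Select transcript lengths of GENCODE 44 and total counts. Replicate libraries differed beyond sampling noise (chi-square per gene 1.76 to 50.3). In the drug combination experiment same-numbered libraries deviated together in each pair of groups (correlations of 0.11 to 0.47 in SuDHL10 and 0.65 to 0.86 in KARPAS422), so blocked counts are given beside results they move; no source states the pairing. Members and lists were chosen with earlier results of these data known. Values per library are given for called members with the largest changes, up to 8 a direction in KARPAS422 with MI-503 or both drugs and up to 4 elsewhere, for called members against their list's majority and, in KARPAS422 with MI-503, for some paired enzymes.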

Additional observations from a re-analysis of the deposited data

Results flagged for a closer look

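The response to MI-503 differed between KARPAS422 and DB in 31 of the 36 members, between KARPAS422 and Farage in 16 and between KARPAS422 and SUDHL5 in 19, by the interaction term of edgeR's fit at an adjusted p under 0.1. Of all genes tested, 27.2% were higher and 19.7% lower against DB. Against Farage these shares were 9.52% and 14.7%, and against SUDHL5 19% and 17%. Of the 31 members, 9 were called in opposite directions in KARPAS422 and DB, beside 9.81% of the 13051 genes tested in all 3 fits. WARS (KARPAS422 minus DB -2.62 on the log2 scale), CARS (-1.47), AARS (-1.44), SARS (-1.17), TARS (-0.78) and the mitochondrial WARS2 (-0.54) fell in KARPAS422 and rose in DB. KARS (0.40), NARS2 (0.67) and VARS2 (0.66) rose in KARPAS422 and fell in DB. Against Farage, AARS (-0.66) and CARS (-1.45) were called in opposite directions, and against SUDHL5 AARS (-0.83) and KARS (0.39), beside 3.68% and 7.66% of all genes. In DB the drug and the depth of the libraries cannot be told apart, and WARS2 in DB changed direction in a fit with a term for depth class.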

How the results depend on the processing

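Among counts and medians of the member lists, 592 alternatives left the value within the spread or within 1.5 times and 173 moved it. Among values of single called members 2640 stayed called in the same direction, 323 lost the call and 1 reversed: WARS2 with MI-503 in DB was -0.042 with the depth class term. Causes were not tested. In what follows counts are members that fell, C for cytosolic and M for mitochondrial, unless named otherwise, and gap means the cytosolic less the mitochondrial median log2 fold change.

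With DESeq2, counts were 1 M for MI-503 in Farage, 0 M lower for KARPAS422 minus Farage and 1 M higher for KARPAS422 minus SUDHL5, 10 C and 5 M for EPZ-6438, 1 C for VTP50469 and 3 C for the departure in KARPAS422, and 1 C for EPZ-6438 in SuDHL10. With RLE size factors they were 8 C and 7 M for EPZ-6438 in KARPAS422. Scaled by library totals alone they were 2 C and 1 M in Farage, 4 M for EPZ-6438 and 1 C for VTP50469 in KARPAS422, and 0 C and 2 M for EPZ-6438 in SuDHL10. With no filter they were 1 M higher for KARPAS422 minus SUDHL5, 1 M for SuDHL10 minus KARPAS422, 1 M for EPZ-6438 in KARPAS422, and in SuDHL10 2 C for both drugs, 1 C against EPZ-6438 and 1 C for the departure. With all 16 libraries of the MI-503 experiment in 1 fit they were 2 C and 0 M in Farage. With the depth class term added (chosen after seeing the data) they were 4 M in Farage and 1 M for KARPAS422 minus Farage, and the gap was 0.15 in DB and 0.063 in Farage.

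With a fold above 1.5 required, counts were 0 M in KARPAS422, 3 C and 5 M in DB, 0 C and 0 M in Farage, 1 C and 0 M in SUDHL5, 5 M higher for KARPAS422 minus DB, 0 M for KARPAS422 minus Farage and 0 M higher for KARPAS422 minus SUDHL5. They were 1 M for SuDHL10 minus KARPAS422, 1 C and 0 M for EPZ-6438, 4 M for both drugs and 6 C for both drugs against EPZ-6438 in KARPAS422, and 0 C and 0 M for EPZ-6438 and 0 M for both drugs in SuDHL10. With the 2 compared groups alone they were 10 C and 6 M for EPZ-6438, 5 M for both drugs and 5 C and 1 M against EPZ-6438 in KARPAS422, and 0 C and 1 M for EPZ-6438 and 1 C for both drugs in SuDHL10. With counts thinned to the smallest total, EPZ-6438 gave 11 C and 7 M in KARPAS422 and 1 C in SuDHL10, KARPAS422 minus Farage gave 0 M, and the gap was 0.19 in DB, 0.0097 in Farage, -0.74, -0.55 and -0.50 for KARPAS422 minus DB, Farage and SUDHL5, 0.35 for SuDHL10 minus KARPAS422, -0.12 for the departure in KARPAS422 and 0.14 for EPZ-6438 in SuDHL10. Without GARS and KARS the gap was 0.0029 in Farage, 0.026 in SUDHL5, 0.36 for SuDHL10 minus KARPAS422 and -0.29 for both drugs in KARPAS422.

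In the MI-503 experiment same-numbered libraries did not deviate together (correlations of -0.25 to 0.01) and share only a number. In the drug combination experiment they did. With a replicate block there, EPZ-6438 gave 4 M in KARPAS422 and 10 C and 11 M in SuDHL10, where both drugs gave 5 C and 6 M, both drugs against EPZ-6438 2 C and the departure 1 C. The calls over all genes rose with this block in SuDHL10 too, from 615 to 2290 lower with EPZ-6438 and from 905 to 2799 lower with both drugs. In both experiments the block moved no other list count by over 1.5 times. With crossed numbers in SUDHL5 (chosen after seeing the data) 12 C and 9 M fell.

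With each library left out in turn, the lone library of a group is taken to vary like the others. Some ranges do not hold the value from all libraries and so do not bracket it. With all libraries the gap was -0.0085 in Farage and -0.38 for both drugs in KARPAS422. The counts were 4 C for EPZ-6438 in KARPAS422, 3 M for SuDHL10 minus KARPAS422, and in SuDHL10 6 M for EPZ-6438 and 2 M for both drugs. The ranges were as follows. These were for MI-503 in KARPAS422 13 to 15 C, 4 to 7 M and a gap of -0.49 to -0.35, for DB 12 to 13 C, 10 to 12 M and a gap of 0.17 to 0.23, and for Farage 1 to 5 C, 0 to 4 M and a gap of 0.0027 to 0.032. They were for SUDHL5 11 to 13 C, 4 to 8 M and a gap of -0.05 to -0.019, for KARPAS422 minus DB 12 C, 9 to 10 M higher and a gap of -0.85 to -0.78, and for KARPAS422 minus Farage 11 to 15 C, 0 to 5 M and a gap of -0.55 to -0.48. Further ranges were for KARPAS422 minus SUDHL5 12 to 13 C, 1 to 3 M higher and a gap of -0.52 to -0.36, for SuDHL10 minus KARPAS422 10 to 12 C higher, 1 to 2 M and a gap of 0.32 to 0.45, and for EPZ-6438 in KARPAS422 0 to 3 C, 0 to 2 M and a gap of -0.0066 to 0.099. The drug combination gave for VTP50469 in KARPAS422 0 C, 0 M and a gap of -0.25 to -0.13, for both drugs in KARPAS422 16 to 18 C, 7 to 11 M and a gap of -0.35 to -0.23, and for both drugs against EPZ-6438 in KARPAS422 0 to 18 C, 0 to 10 M and a gap of -0.50 to -0.23. Next came, for the departure in KARPAS422 0 to 18 C, 0 to 11 M and a gap of -0.27 to -0.15, for EPZ-6438 in SuDHL10 1 to 3 C, 2 to 5 M and a gap of 0.097 to 0.18, and for VTP50469 in SuDHL10 0 C, 0 M and a gap of 0.032 to 0.13. Last were, for both drugs in SuDHL10 0 to 1 C, 0 to 1 M and a gap of 0.0013 to 0.13, for both drugs against EPZ-6438 in SuDHL10 0 to 1 C, 0 M and a gap of -0.16 to 0.0072, and for the departure in SuDHL10 0 to 1 C, 0 M and a gap of -0.24 to -0.024.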

Other observations

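Genes that act after the mitochondrial tRNAs are charged moved with MI-503 too. Of 9 mitochondrial translation factors 6 fell and 1 rose in KARPAS422 (median log2 fold change -0.11), 5 fell and 3 rose in DB (-0.33), 5 fell and 1 rose in SUDHL5 (-0.23) and 2 fell in Farage (-0.09). Of all genes tested 26.3%, 34.7%, 28.7% and 14.7% fell in the same lines. TSFM, which recharges the mitochondrial elongation factor, fell in each of the 4 lines (KARPAS422 -0.48 ± 0.045, DB -0.92 ± 0.071, Farage -0.23 ± 0.069, SUDHL5 -0.34 ± 0.081). TUFM, that elongation factor, fell in DB (-0.57 ± 0.03), SUDHL5 (-0.23 ± 0.039) and KARPAS422 (-0.08 ± 0.032). Its response in KARPAS422 was higher than in DB by 0.50 ± 0.043 (adjusted p = 3.04e-07 for the interaction in edgeR's test) and than in SUDHL5 by 0.14 ± 0.049 (adjusted p = 0.0419). MTIF3, an initiation factor, rose in KARPAS422 (0.18), DB (0.42) and SUDHL5 (0.35). With both drugs in KARPAS422 TSFM (-1.31 ± 0.11), GFM1 (-1.06 ± 0.21) and TUFM (-1.04 ± 0.094) fell the most of the list.

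The complex GatCAB makes the mitochondrial glutaminyl-tRNA by amidation, since no separate mitochondrial glutamine enzyme is used. Its subunit gene GATB fell with MI-503 in KARPAS422 (-0.29 ± 0.065), DB (-0.33 ± 0.061) and SUDHL5 (-0.40 ± 0.098), and not in Farage (-0.01 ± 0.1, adjusted p = 0.965 in edgeR's test). QRSL1, which encodes its GatA subunit, fell in DB (-0.62 ± 0.04) and rose in SUDHL5 (0.18 ± 0.079). TARSL2, a further cytosolic threonine enzyme outside the 20 members, rose in KARPAS422 (0.57 ± 0.089, adjusted p = 0.000386) where TARS fell. GATB (-0.49 ± 0.092) and GATC (-0.90 ± 0.18) fell with both drugs in KARPAS422.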
